A study of Mus musculus with 4 samples.

Results

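Glucose uptake and glycolysis are represented here by 20 genes and oxygen sensing with its transcriptional targets by 11, together 31 of the 32285 genes counted in single leukocytes of mouse lung. The genes were taken by symbol and not by a cut on measured values, but with earlier results of these data known. Each matched 1 row of the count matrices except Aldoa, whose 2 rows were summed. The glycolysis genes are the glucose carriers Slc2a1 (GLUT1) and Slc2a3 (GLUT3), the lactate carrier Slc16a3 (MCT4), 14 enzymes from the hexokinases to lactate dehydrogenase, and the regulators Pfkfb3, Pfkfb4 and Pdk1. The hypoxia genes are Hif1a, Egln1 and Egln3 for oxygen sensing, and Vegfa, Bnip3, Bnip3l, Ndrg1, P4ha1, Adm, Ankrd37 and Mxi1 as targets.

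Glycolysis splits glucose into pyruvate, and Ldha turns pyruvate into lactate where mitochondria do not take it up. The oxygen-dependent prolyl hydroxylases of the Egln genes mark HIF-1alpha, the protein of Hif1a, for destruction. When oxygen is short HIF-1alpha accumulates and activates glycolytic enzymes, glucose carriers and genes such as Bnip3, Vegfa and Egln3 itself. Neutrophils live largely on glycolysis, have few mitochondria, and are known to survive longer in inflamed tissue when HIF-1alpha is active.

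The cells came from lungs of C57B6/J mice, either wild type (WT) or Plaur-/-, which lack the urokinase receptor (KO). Every mouse received LPS with ovalbumin on days 0 and 7 and an ovalbumin aerosol on day 14, so no untreated lung is included. One RNA library was made per genotype from digested lung sorted for CD45.2. The labels name 8 mice of each genotype but not the number behind a library, and describe the material both as circulating leukocytes and as total lung lysate. Age, sex and the deleted part of Plaur are not given in the sources used here.

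After filtering, 8684 of 9024 WT-labelled barcodes remained (library total 42913843 UMIs, that is, molecules counted once; median 3209 per cell). Of the KO-labelled barcodes, 9584 of 10102 remained (47442215 UMIs, median 2777.5), and 16 barcodes occurred in both libraries. Plaur itself stood at 527 and 455 CPM (CPM, the gene's UMIs scaled to the total UMIs of the summed cells) under the WT and the KO label, and in neutrophils at 2070 and 1255 CPM. It stood at 1084 and 586 CPM in classical monocytes, 438 and 97.6 CPM in interstitial and 318 and 90.1 CPM in alveolar macrophages, and 5.24 and 131 CPM in NK cells, from 5 and 156 UMIs. The 3′ tag that is counted may lie outside the deleted part, which is not given, so the labels cannot be checked from these levels. In what follows, paired values name WT first and KO second. Ranges in parentheses are 95% intervals of counting error only. With 1 library per genotype no test was possible, and no difference has a replicate check.

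Neutrophils formed clusters 0, 2, 4 and 5, with 8 to 10 of 10 neutrophil markers in each, 2277 cells in WT and 3313 in KO. Their state was read from the summed UMIs of F3 (tissue factor), Hcar2 (a receptor for hydroxybutyrate and niacin) and Rnd1. Cells with at least 2 such UMIs, called state-high here, were set against cells with 0, called state-zero. State-high cells numbered 966 in WT (42.4%, 40.4% to 44.5%) and 914 in KO (27.6%, 26.1% to 29.1%), by exact Clopper-Pearson intervals. State-zero cells numbered 833 and 1648, and 478 and 751 cells had 1 UMI. After thinning to 1000 UMIs per cell, which left out 106 and 177 shallower neutrophils, 22.1% and 12.5% were state-high. Among B cells 0 of 1484 and 0 of 1117 reached 2 UMIs, which allows shares of up to 0.202% and 0.269%. Median depths were 2332 and 2045 UMIs in B cells and 1746 and 1729 in neutrophils.

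Promoters are printed for Hk1, Egln3 and Hk2, members that were higher in state-high cells of both libraries, and for Ldha, whose first window held the most matches of all members and whose state ratios had intervals that included 0. Each sequence comes from RefSeq on GRCm38.p6 and runs from 250 bases before to 50 bases after a start site, 5′ to 3′ along the gene. Capitals mark ACGTG or GCGTG on either strand (reading CACGT or CACGC on the other), the core of the hypoxia response element that HIF-1 binds.

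Hk1, chr10:62340372-62340671, minus strand: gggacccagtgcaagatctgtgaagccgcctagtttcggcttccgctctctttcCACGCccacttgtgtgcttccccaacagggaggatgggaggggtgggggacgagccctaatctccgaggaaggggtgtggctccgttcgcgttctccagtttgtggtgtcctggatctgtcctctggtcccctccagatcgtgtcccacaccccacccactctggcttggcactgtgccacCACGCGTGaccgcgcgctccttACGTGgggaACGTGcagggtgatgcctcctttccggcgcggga

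Hk1, chr10:62379859-62380158, minus strand: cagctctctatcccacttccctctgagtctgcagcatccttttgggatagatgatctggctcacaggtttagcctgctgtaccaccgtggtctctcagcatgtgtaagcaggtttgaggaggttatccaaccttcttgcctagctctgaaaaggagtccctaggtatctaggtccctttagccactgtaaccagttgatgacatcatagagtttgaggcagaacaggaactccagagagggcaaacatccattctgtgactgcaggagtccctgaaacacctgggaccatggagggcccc

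Egln3, chr12:54203825-54204124, minus strand: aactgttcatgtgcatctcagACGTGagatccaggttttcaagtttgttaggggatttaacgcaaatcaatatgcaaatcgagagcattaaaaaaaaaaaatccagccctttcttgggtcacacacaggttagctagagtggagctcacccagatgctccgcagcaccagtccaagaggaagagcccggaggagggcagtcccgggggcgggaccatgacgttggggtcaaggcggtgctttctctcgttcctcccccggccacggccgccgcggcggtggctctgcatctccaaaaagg

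Hk2, chr6:82774405-82774704, minus strand: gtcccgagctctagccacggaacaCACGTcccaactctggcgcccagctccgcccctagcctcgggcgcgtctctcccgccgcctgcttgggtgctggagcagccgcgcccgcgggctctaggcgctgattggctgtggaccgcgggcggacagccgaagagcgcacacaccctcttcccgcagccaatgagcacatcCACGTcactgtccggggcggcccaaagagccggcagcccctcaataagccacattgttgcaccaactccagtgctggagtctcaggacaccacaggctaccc

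Ldha, chr7:46845554-46845853, plus strand: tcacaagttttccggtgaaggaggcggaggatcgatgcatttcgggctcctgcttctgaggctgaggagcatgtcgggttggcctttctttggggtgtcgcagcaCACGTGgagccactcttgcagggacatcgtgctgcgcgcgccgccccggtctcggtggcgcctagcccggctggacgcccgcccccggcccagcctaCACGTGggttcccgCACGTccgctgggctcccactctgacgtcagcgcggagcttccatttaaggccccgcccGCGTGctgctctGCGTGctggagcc

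The 2 Hk1 windows held 5 and 0 matches, Egln3 1, Hk2 2 and the Ldha window 7, with overlapping matches each counted. Of 28 members with a window, 26 had a match in at least 1 of theirs, 17 of 19 glycolysis and 9 of 9 hypoxia genes. By window, 32 of 40 held one, against 43.8% of all 32851 mouse promoter windows of that length. Slc2a3, Bnip3l and Ndrg1 had no window in the table. A match is a run of letters and not a bound site.

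Levels were compared between 17 cell classes for 1 gene at a time, never between genes, and are a description, since the clusters behind the classes were made from the variable genes of the same cells. Neutrophils had the highest level of 10 of 31 members in WT and 9 of 31 in KO, more than any other class, and the 3 carriers were among them. The share of all genes that were highest in neutrophils was not counted, so these counts have no background. CPM is a share of the UMIs of a class and not an amount per cell. Median UMIs per cell were 1746 and 1729 in neutrophils and 8158.5 and 9402.5 in classical monocytes, so the order per cell can differ. Slc16a3, which exports lactate, stood at 495 and 427 CPM in neutrophils and 236 and 223 CPM in nonclassical monocytes, the next class. Slc2a3 stood at 252 and 275 CPM, with 99.6 and 100.3 CPM in classical monocytes and 1.40 and 1.03 CPM in alveolar macrophages, where it was lowest. Slc2a1 stood at 169.9 and 185 CPM, again followed by classical monocytes at 104 and 87.9 CPM. For all 3 the neutrophil interval lay above that of the next class in both libraries.

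The enzymes had no common class. Hk3, a hexokinase of myeloid cells, reached 179 and 219 CPM in neutrophils, and Pkm (pyruvate kinase) 468 and 486 CPM, each clear of the next class in both libraries. Pfkfb4, which sets fructose 2,6-bisphosphate, reached 122 and 156 CPM there and 108 and 123 CPM in alveolar macrophages. Hk1 reached 110.0 and 77.7 CPM in neutrophils and 76.1 and 97.9 CPM in gamma-delta T cells, with overlapping intervals and gamma-delta T cells highest in KO. Hk2, the inducible hexokinase, was highest in interstitial macrophages at 154 and 193 CPM, and neutrophils at 48.9 and 45.01 CPM ranked 13th and 12th of the classes. Pfkp, the platelet-type phosphofructokinase, was highest in conventional dendritic cells, at 700.3 and 638 CPM in cDC1 and 648 and 553 CPM in cDC2.

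Ldha was highest in group 2 innate lymphoid cells, at 1218 and 1001 CPM. Regulatory T cells followed at 466 and 496 CPM, and neutrophils at 105 and 137 CPM ranked only 15th and 14th. Aldoa (aldolase) was highest in alveolar macrophages at 476 and 416 CPM, and Gapdh there at 616 and 577 CPM or, in KO, in cycling cells at 599 CPM. Pdk1, which keeps pyruvate out of mitochondria, reached 58.4 and 61.9 CPM in T cells and, in KO, 63.8 CPM in gamma-delta T cells, against 2.38 and 3.61 CPM in neutrophils. Within T cells it ran from 7 and 5 UMIs in cluster 15, led by Cd8a, to 135 and 123 CPM in cluster 13, led by Igfbp4 and Lef1. Pfkfb3, a relative of Pfkfb4, was highest in CCR7 dendritic cells at 99.3 and 156 CPM.

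For 6 more enzymes the highest class was not clear of the next in both libraries. Pgam1 was highest in interstitial macrophages at 198 and 168 CPM, Eno1 in classical monocytes at 95.3 and 97.7 CPM and Pfkl in regulatory T cells at 32.96 and 46.96 CPM. Gpi1 peaked in WT classical monocytes at 215 CPM and KO neutrophils at 229 CPM, Tpi1 in WT interstitial macrophages at 70.4 CPM and KO cycling cells at 71.5 CPM, and Pgk1 in WT cDC1 at 138 CPM and KO gamma-delta T cells at 140.4 CPM. At the low end, B cells were lowest in both libraries for 7 members, with Hk2 at 7.71 and 7.13 CPM, Pfkp at 45.03 and 36.8 CPM, Gapdh at 175 and 164 CPM, Pgk1 at 42.8 and 54.8 CPM, Pgam1 at 44.03 and 47.7 CPM, Pkm at 89.3 and 88.2 CPM and Egln3 at 0.249 and 0 CPM. Plasma cells were lowest in both for Gpi1 (67.2 and 76.1 CPM), Pfkfb3 (12.8 and 7.31 CPM) and Hif1a (90.7 and 91.96 CPM). Alveolar macrophages were lowest in both for Slc2a3 (1.40 and 1.03 CPM) and Hk1 (6.72 and 8.26 CPM). Gamma-delta T cells were lowest in both for Mxi1 (8.45 and 4.26 CPM). The lowest class differed by library for 13 members, and lay under 100 CPM in each. In WT these were, in CPM, Slc2a1 (16.9) and Tpi1 (22.5) in gamma-delta T cells, Slc16a3 (0.746) in B cells, Hk3 (0), Pfkl (4.32), Bnip3l (34.5) and Ndrg1 (0) in group 2 innate lymphoid cells, Aldoa (90.01) and Eno1 (20.8) in plasma cells, Ldha (95.8), Pdk1 (0) and Egln1 (15.8) in CCR7 dendritic cells, P4ha1 (8.05) in neutrophils. In KO these were, in CPM, Slc2a1 (17.6), Eno1 (21.1) and Bnip3l (21.1) in CCR7 dendritic cells, Slc16a3 (2.86) and Tpi1 (20.6) in T cells, Hk3 (0) in regulatory T cells, Pfkl (7.13) in plasmacytoid dendritic cells, Aldoa (90.2) in cycling cells, Ldha (87.7) and P4ha1 (10.4) in plasma cells, Pdk1 (3.61) and Egln1 (13.2) in neutrophils, Ndrg1 (0) in gamma-delta T cells. Other members were at 0 UMIs in several classes of at least 1 library, which leaves no single lowest class. Vegfa was at 0 in gamma-delta T cells, group 2 innate lymphoid cells and regulatory T cells of both libraries. Pfkfb4 and Bnip3 were at 0 in WT group 2 innate lymphoid cells and in KO gamma-delta T cells and group 2 innate lymphoid cells. Ankrd37 was at 0 in WT group 2 innate lymphoid, NK, plasma and regulatory T cells and in KO gamma-delta T cells, and Adm in most classes of both libraries.

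The oxygen sensors differed in their classes. Egln3 was highest in neutrophils at 221 and 189.9 CPM, classical monocytes followed at 88.7 and 65.1 CPM, and B cells held 1 and 0 UMIs. Egln1, the main oxygen sensor of most cells, stood in neutrophils at 18.1 and 13.2 CPM, 15th and 17th of 17 classes, and was highest in NK cells in WT (66.1 CPM) and group 2 innate lymphoid cells in KO (91.7 CPM). Hif1a was highest in group 2 innate lymphoid cells at 1403 and 1276 CPM and regulatory T cells at 1382 and 1205 CPM, with overlapping intervals, and neutrophils at 497 and 642 CPM ranked 3rd in both libraries.

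The hypoxia targets had no common class either. Bnip3, a mitophagy receptor, peaked in neutrophils at 37.3 and 33.9 CPM, and its relative Bnip3l in alveolar macrophages at 230.2 and 234 CPM. Vegfa, the vascular growth factor, peaked in NK cells at 54.5 and 21.8 CPM, with neutrophils next at 31.1 and 21.1 CPM. Ndrg1 peaked in CCR7 dendritic cells at 80.9 and 138 CPM, as did Adm (adrenomedullin) at 8.79 and 12.9 CPM, which had 0 and 1 UMIs in neutrophils. Mxi1, an antagonist of Myc, stood at 128 and 94.03 CPM in neutrophils and 109 and 116 CPM in nonclassical monocytes. P4ha1, a collagen prolyl hydroxylase, stood at 8.05 and 12.02 CPM in neutrophils against 71.9 and 90.6 CPM in nonclassical monocytes and 96.7 and 83.5 CPM in regulatory T cells. Ankrd37 peaked in B cells at 17.7 and 21.02 CPM.

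**Figure D1:**
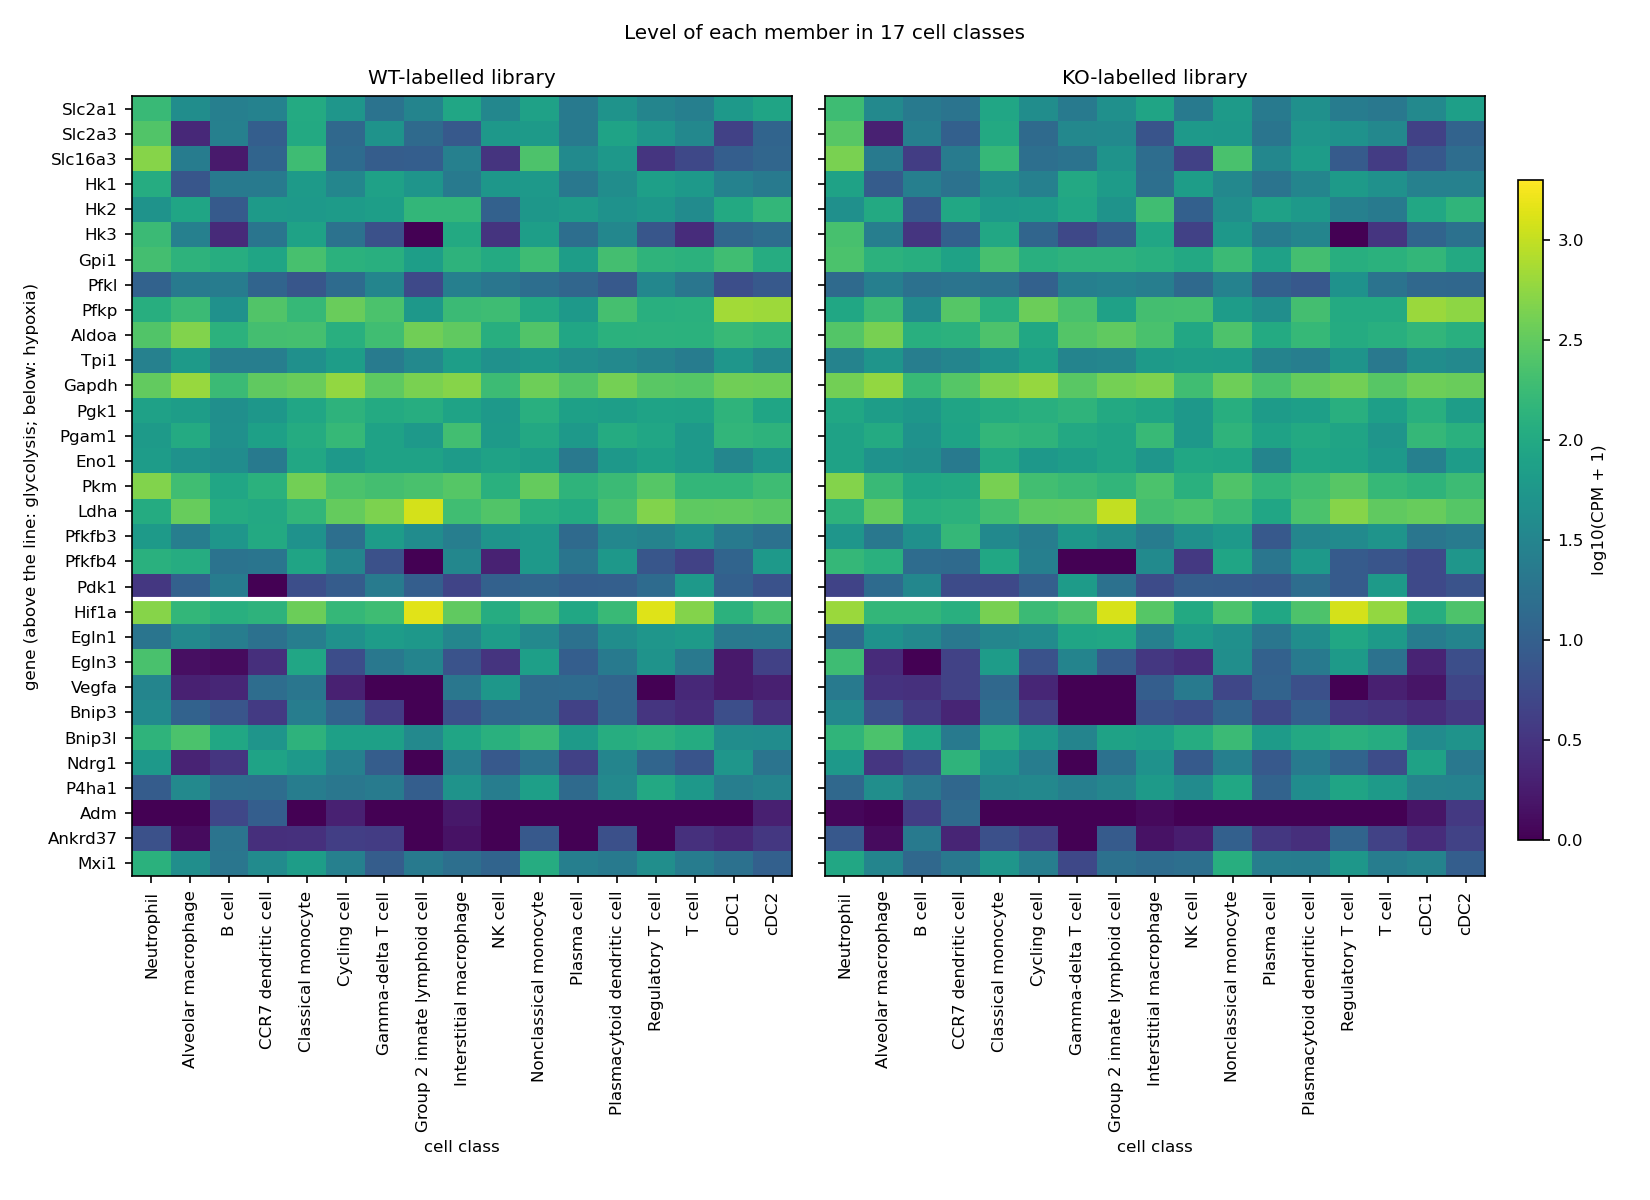
Level of each of the 31 members (rows) in 17 cell classes (columns) as log10(CPM + 1), WT-labelled library on the left and KO-labelled on the right. Slc2a1, Slc2a3, Slc16a3, Hk3, Pkm, Egln3 and Bnip3 are brightest in the neutrophil column, while Ldha and Hif1a are brightest in group 2 innate lymphoid cells.

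Between neutrophil states, Hk1 and Egln3 were more than 1.5-fold higher in state-high cells of both libraries, the only members past that fold in both, and most others differed little. A gene was counted as past the fold at 1.5-fold or more and at least 20 UMIs over both groups. In WT, 1 of 19 measured glycolysis genes (Hk1) and 1 of 10 hypoxia genes (Egln3) were past it higher, and 1 hypoxia gene (Mxi1) lower. Of all 7255 genes measured there 11.8% were higher and 11.6% lower. In KO, 2 of 19 glycolysis genes (Hk1, Hk2) and 3 of 10 hypoxia genes (Egln3, P4ha1, Ankrd37) were higher and none lower, against 9.64% and 8.96% of 7509 genes. The members' shares were near or under these backgrounds, apart from the 3 of 10. Of those 3, P4ha1 (0.64, -0.072 to 1.37) and Ankrd37 (0.87, -0.10 to 1.89) had log2 ratios whose intervals included 0. Median log2 ratios in WT were 0.045 for glycolysis, -0.079 for hypoxia and -0.077 for all genes, and in KO -0.11, -0.094 and -0.076.

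Hk1 (chr10:62268855-62379920 on GRCm38.p6, minus strand) encodes the hexokinase that sits on mitochondria and performs the first step of glycolysis in most cells. State-zero and state-high WT cells had 52.8 against 145 CPM, a log2 ratio of 1.45 (1.10 to 1.83). The KO cells had 46.2 against 121 CPM, a log2 ratio of 1.38 (1.10 to 1.68). Over cells with 0, 1, 2, 3 to 4, and 5 or more state UMIs, Hk1 stood at 52.8, 80.8, 107, 151 and 159 CPM in WT and 46.2, 60.5, 81.8, 129.8 and 149.6 CPM in KO, higher at each step in both. With the state read from Rnd1 alone the log2 ratio was 0.57 in WT, under 1.5-fold, and 1.14 in KO. A Hk1 UMI was found in 7.80% of state-zero and 30.6% of state-high WT cells, and in 6.86% and 24.5% of KO cells. State-high cells were deeper. After thinning the shares were 5.06% and 14.3%, and 3.79% and 11.9%. In alveolar macrophages, the class with least Hk1, they were 1.09% and 1.17% (5.05% and 4.91% unthinned, at median depths of 7605 and 6471 UMIs).

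Hk2 had 38.5 against 56.4 CPM, a log2 ratio of 0.55 (0.10 to 1.02), in WT and 31.6 against 61.5 CPM, 0.96 (0.59 to 1.34), in KO. Its steps were 38.5, 39.3, 43.9, 46.6 and 68.4 CPM and 31.6, 40.8, 46.6, 59.8 and 77.3 CPM, each higher than the one before. Hk3 did not follow, with 176 against 182 CPM, 0.045 (-0.17 to 0.27), and 211 against 233 CPM, 0.14 (-0.016 to 0.30). After thinning, a Hk2 UMI was found in 3.77% (2.54% to 5.36%) of state-zero and 5.26% (3.93% to 6.87%) of state-high WT cells. In KO the shares were 2.68% (1.93% to 3.62%) and 5.84% (4.39% to 7.59%). Over 20 alternatives the Hk2 log2 ratio ran from -0.027 to 0.91 in WT and from 0.63 to 1.66 in KO. Among the hexokinases the state difference therefore lay in Hk1 and, more weakly and less steadily in WT, in Hk2.

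Over all neutrophils of each state, the glucose carriers differed between the states in opposite directions. Slc2a1 had 135 against 189 CPM, a log2 ratio of 0.49 (0.25 to 0.73), in WT and 162 against 212 CPM, 0.39 (0.21 to 0.56), in KO. Slc2a3 had 314 against 219 CPM, -0.52 (-0.69 to -0.34), and 297 against 236 CPM, -0.33 (-0.48 to -0.18). The lactate carrier Slc16a3 had 587 against 443 CPM, -0.41 (-0.53 to -0.28), and 441 against 399 CPM, -0.15 (-0.26 to -0.030). All of these were under 1.5-fold.

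Below the hexokinases most enzymes were level or slightly lower in state-high cells, with Pfkp slightly higher. Gpi1, the next enzyme, had 247 against 183 CPM, a log2 ratio of -0.43 (-0.62 to -0.23), in WT and 259.7 against 201 CPM, -0.37 (-0.53 to -0.21), in KO. The log2 ratio of Aldoa was -0.23 (-0.41 to -0.055) in WT and -0.26 (-0.41 to -0.11) in KO, and that of Pfkp 0.29 (0.0091 to 0.58) and 0.26 (0.019 to 0.51). TMM and DESeq2 scaling moved WT state ratios up by 0.112 and 0.131, after which the WT interval of Aldoa includes 0. Gapdh, Pgam1, Eno1, Pkm, Ldha, Tpi1, Pfkl and Pfkfb4 had intervals that included 0 in both libraries. Ldha, the lactate-forming step, stood at 103 and 102 CPM in WT and 136 and 137 CPM in KO. Pgk1 had 69.2 against 83.3 CPM, 0.27 (-0.074 to 0.62), in WT but 106 against 80.1 CPM, -0.40 (-0.65 to -0.15), in KO, and Pfkfb3 log2 ratios of -0.39 (-0.75 to -0.025) and -0.30 (-0.64 to 0.041). Pdk1 was under 20 UMIs.

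Egln3 (chr12:54178981-54203874, minus strand) encodes the oxygen-dependent hydroxylase that HIF itself induces. State-zero and state-high cells had 139 against 255 CPM, a log2 ratio of 0.88 (0.65 to 1.11), in WT and 140.0 against 243 CPM, 0.80 (0.62 to 0.97), in KO. Its steps were 139, 229.7, 246, 283 and 244 CPM and 140.0, 189, 235, 246 and 248 CPM, so that most of the difference lay between 0 and 2 state UMIs, and in WT the last step was lower than the one before. A UMI of Egln3 was found in 11.9% and 34.1% of WT and 13.3% and 34.5% of KO cells. After thinning these were 8.31% and 19.1%, and 9.28% and 17.9%, against 0.0674% and 0% of B cells before thinning, where the 0 allows a share of up to 0.269%.

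The other hypoxia genes did not share this pattern. Mxi1 had 163 against 105 CPM, a log2 ratio of -0.64 (-0.88 to -0.39), in WT and 102 against 83.9 CPM, -0.28 (-0.53 to -0.030), in KO. Hif1a had 456 against 512 CPM, 0.17 (0.035 to 0.30), and 649 against 644 CPM, -0.011 (-0.10 to 0.082). The log2 ratio of Bnip3l was -0.39 (-0.63 to -0.14) in WT and -0.13 (-0.33 to 0.074) in KO, and that of Ndrg1 -0.063 (-0.44 to 0.33) and -0.44 (-0.76 to -0.13). Vegfa, Bnip3 and Egln1 had intervals that included 0 in both libraries, and Adm was all but absent.

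**Figure D2:**
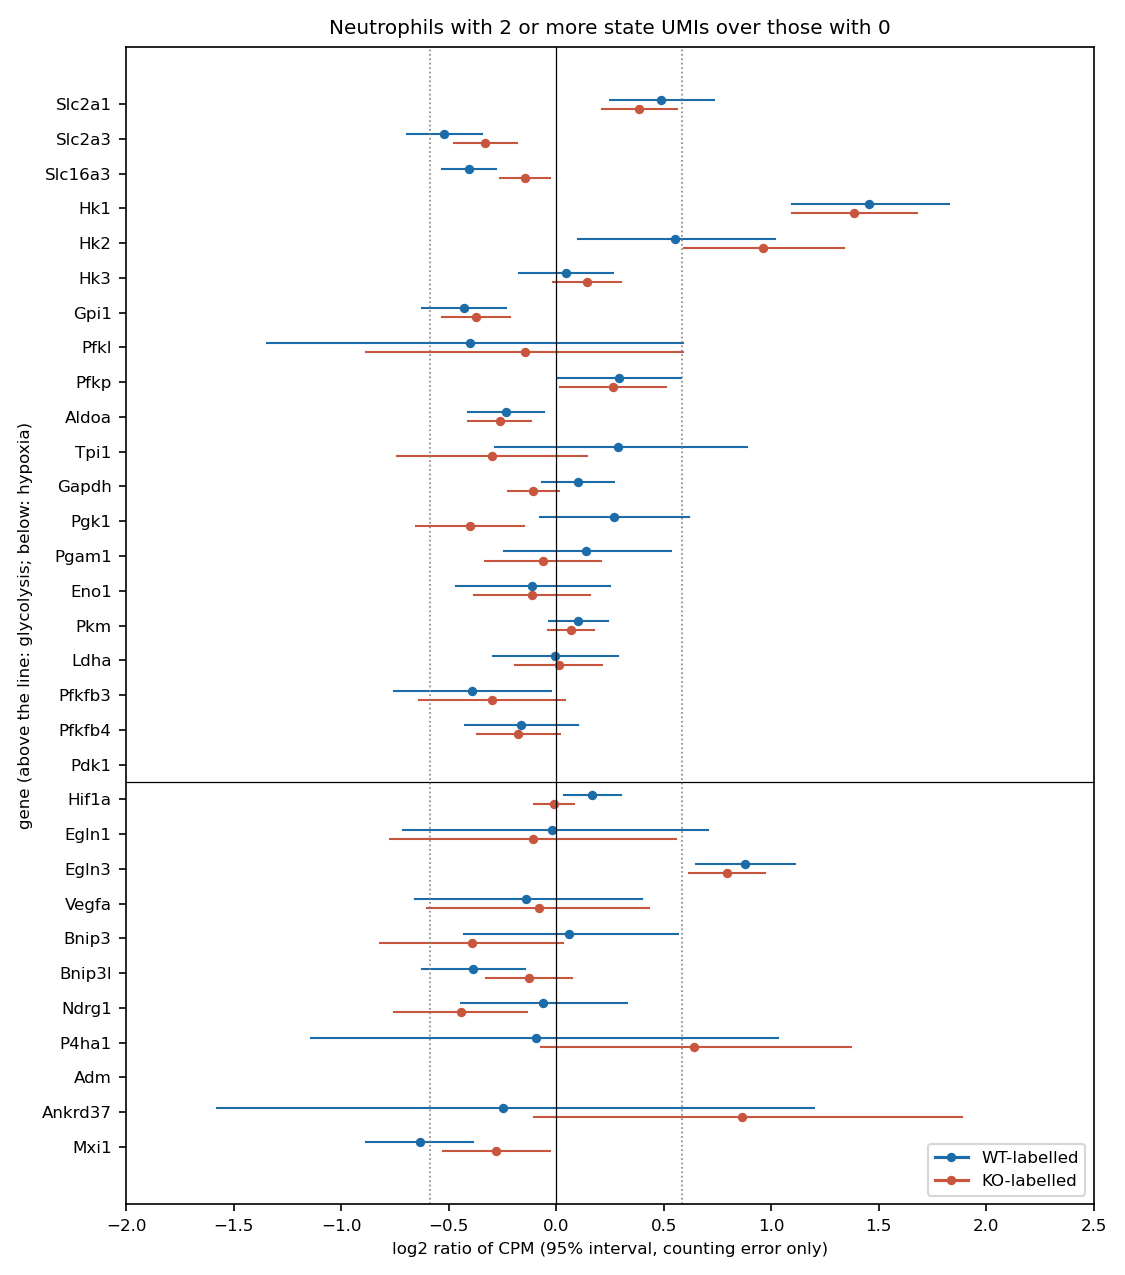
Log2 ratio of CPM for each member, neutrophils with 2 or more state UMIs over those with 0 (points) with 95% counting intervals (lines), WT-labelled in blue and KO-labelled in red, members under 20 UMIs left blank, and 1.5-fold as dotted lines. Hk1 and Egln3 lie past the right dotted line in both libraries, and most other points lie between the dotted lines.

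**Figure D3:**
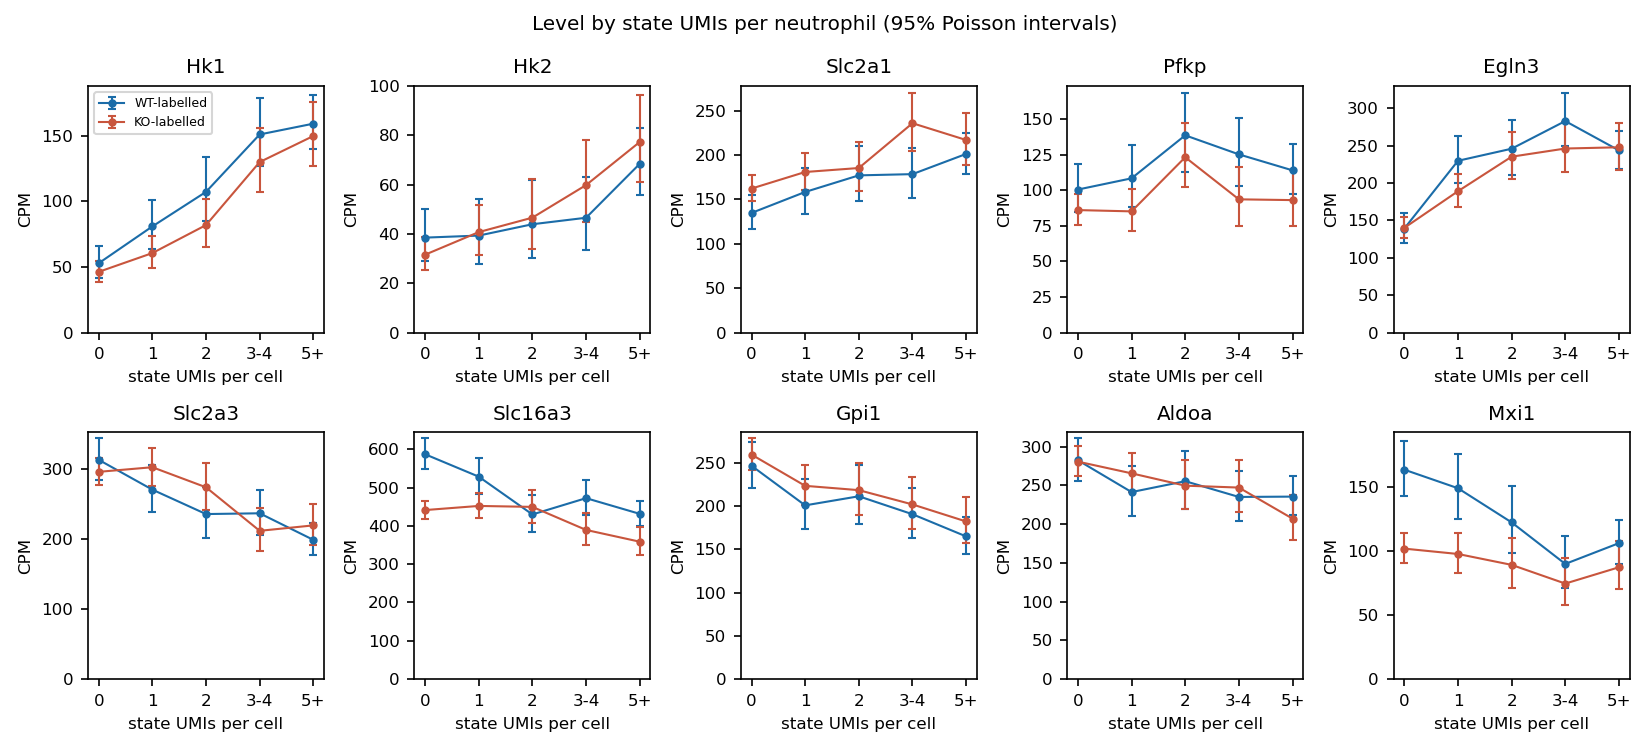
CPM (y axis) of 10 members in neutrophils with 0, 1, 2, 3 to 4 (3-4) and 5 or more (5+) UMIs of F3, Hcar2 and Rnd1 (x axis), with 95% Poisson intervals, WT-labelled in blue and KO-labelled in red. Hk1 in WT climbs from 52.8 to 159 CPM over the 5 bins, whereas Egln3 in WT is at 246 CPM from 2 UMIs and 244 CPM in the last.

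In neutrophil cluster 0, Hk1 and Egln3 differed between the states in opposite directions. Clusters 0 and 4 held most state-high cells, 55.3% and 71.1% of their WT and 40.5% and 59.9% of their KO cells. In cluster 2 the shares were 11.4% and 8.76% and in cluster 5 10.7% and 9.92%. F3, Egln3 and Hcar2 lead cluster 0, and Egln3 and Hcar2 are among the leading genes of cluster 4, so the levels between clusters, and Egln3 inside a cluster, are a description. Egln3 stood at 369 and 478 CPM in cluster 0, 240.4 and 212 CPM in cluster 4, 40.4 and 40.5 CPM in cluster 2 and 11.4 and 25.7 CPM in cluster 5. Hk1 followed the same order at the top, with 151 and 146 CPM in cluster 0 and 124 and 90.1 CPM in cluster 4 against 41.3 and 33.98 CPM in cluster 2 and 37.1 and 34.2 CPM in cluster 5. Slc2a3 went the other way, from 139 and 110.4 CPM in cluster 0 to 482 and 435 CPM in cluster 5.

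Inside cluster 0, Egln3 was lower in state-high than in state-zero cells, with 449 against 289.9 CPM, a log2 ratio of -0.63 (-0.95 to -0.30), in WT and 538 against 449 CPM, -0.26 (-0.51 to -0.016), in KO. Inside cluster 4 it had 191 against 260.1 CPM, 0.45 (0.018 to 0.91), and 207 against 211 CPM, 0.025 (-0.30 to 0.36). In cluster 2 its ratios were 0.62 (-0.85 to 1.88) and -0.41 (-2.10 to 0.92), with intervals that included 0. Hk1 was higher in state-high cells of cluster 0 in both libraries, by log2 ratios of 0.77 (0.19 to 1.40) and 1.36 (0.85 to 1.89), and in cluster 4 by 1.63 (0.77 to 2.64) and 0.48 (-0.062 to 1.07), the latter with an interval that includes 0. In cluster 2 its ratios were 0.16 (-1.40 to 1.47) and 0.48 (-0.93 to 1.68), with intervals that included 0, and in KO cluster 5 1.10 (0.0018 to 2.10), while WT cluster 5 had under 20 Hk1 UMIs. With the 4 clusters weighted alike the log2 ratio of Hk1 was 0.94 in WT and 0.97 in KO, and that of Egln3 turned to -0.19 and -0.17. With clusters made without the members and state genes these ratios were 0.98 and 1.01 for Hk1 and -0.081 and -0.12 for Egln3.

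Hk2 was higher in state-high cells of cluster 0, with 33.1 against 75.5 CPM, a log2 ratio of 1.19 (0.17 to 2.38), in WT and 20.2 against 100.2 CPM, 2.31 (1.34 to 3.44), in KO, and its intervals in clusters 2 and 4 included 0. Slc2a1, Slc2a3 and Slc16a3 had weighted log2 ratios of -0.017 and 0.062, 0.15 and 0.029, and -0.47 and -0.071. The rise of Slc2a1 and fall of Slc2a3 seen over all neutrophils were thus not kept with the clusters weighted alike. Between the clusters Slc2a1 ran from 219 and 278 CPM in cluster 0 to 106 and 139.9 CPM in cluster 5.

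**Figure D4:**
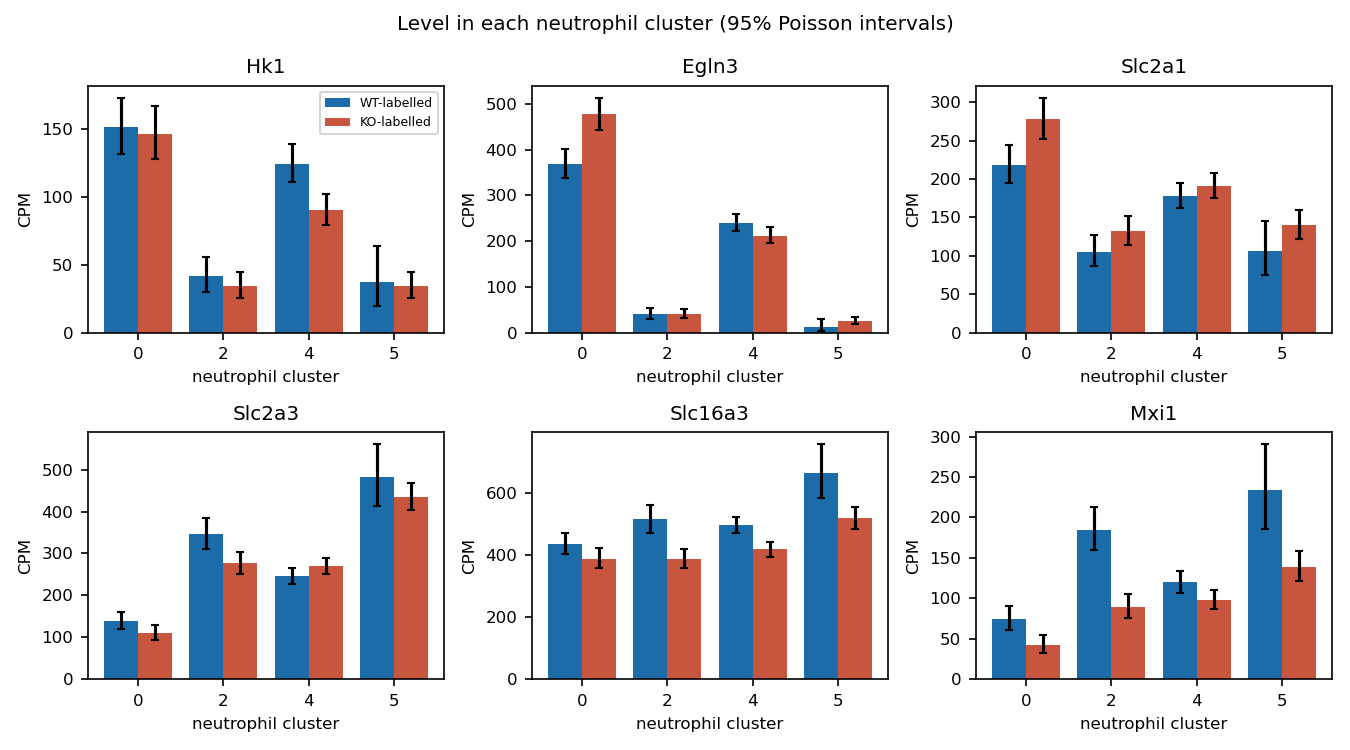
CPM (bars from 0, 95% Poisson intervals) of 6 members in neutrophil clusters 0, 2, 4 and 5, WT-labelled in blue and KO-labelled in red. Hk1, Egln3 and Slc2a1 are highest in clusters 0 and 4, and Slc2a3, Slc16a3 and Mxi1 are highest in cluster 5.

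Other measures moved with the state. Median UMIs per cell in state-zero and state-high cells were 1535 and 2199 in WT and 1625 and 2260 in KO. Summed NK cell markers stood at 4.99 and 38.1 CPM in WT (3 and 9 of 10 detected) and 3.99 and 30.4 CPM in KO (6 and 9 of 10), with Eomes and Prf1 at 0 in both state-zero groups. CCR7 dendritic cell markers stood at 9.98 and 84.6 CPM in WT (2 and 8 of 10, Ccr7, Fscn1 and Ccl22 at 0 in the former) and 14.6 and 19.9 CPM in KO (6 and 7 of 10). T cell markers stood at 27.8 and 68.9 CPM in WT (7 and 12 of 12) and 20.9 and 19.9 CPM in KO (11 and 10 of 12), and classical monocyte markers at 185 and 314 CPM (7 and 8 of 8) and 274 and 457 CPM (8 of 8). Granule genes stood at 4716 and 4079 CPM and 5503 and 4291 CPM. The part of the markers and of depth in the state differences was not tested. Within 5 equal groups of cells by total UMIs, weighted alike, the log2 ratio was 1.65 in WT and 1.79 in KO for Hk1 and 0.90 and 1.03 for Egln3.

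Among further genes of these pathways, Maff (a small bZIP factor) and Bhlhe40 (a transcription repressor), both induced by many stresses besides hypoxia, were highest relative to state-zero cells. Maff had 26.4 against 77.2 CPM, a log2 ratio of 1.55 (1.05 to 2.09), in WT and 19.95 against 66.4 CPM, 1.74 (1.31 to 2.18), in KO. Bhlhe40 had 104 against 173 CPM, 0.73 (0.47 to 1.01), and 92.4 against 188 CPM, 1.02 (0.81 to 1.24). Of 37 other hypoxia genes, 20 and 21 were measured, 4 and 2 were past the fold higher and 2 and 2 lower. Of all genes, 11.8% and 9.64% were higher and 11.6% and 8.96% lower. Egln2, the third prolyl hydroxylase, had 32.8 against 18.6 CPM, -0.82 (-1.40 to -0.23), in WT and a log2 ratio of -0.23 (-0.77 to 0.30) in KO. Ero1l in WT had 14.98 against 27.9 CPM, 0.90 (0.20 to 1.66), and Wsb1 in KO 79.1 against 101 CPM, 0.35 (0.10 to 0.61). Rora was past the fold higher and Kdm4b lower in WT, and Tfrc and Insig2 lower in KO, each under 50 UMIs and named after its value was seen. The log2 ratios of others were Narf -0.40 (-0.93 to 0.15) and Kdm3a -0.22 (-0.67 to 0.23) in WT, and Plod1 -0.43 (-1.15 to 0.26) and Narf -0.33 (-0.76 to 0.10) in KO.

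Of 29 other glycolysis genes, 7 and 8 were measured, 0 and 1 were past the fold higher and 1 and 1 lower. The background for this list and the next was again 11.8% and 9.64% of all genes higher and 11.6% and 8.96% lower. Slc2a6, a lysosomal hexose carrier, had 67.8 against 99.02 CPM, a log2 ratio of 0.55 (0.21 to 0.89), in WT and 68.8 against 84.6 CPM, 0.30 (0.024 to 0.57), in KO. Adpgk, an ADP-dependent glucokinase, had 17.1 against 8.01 CPM, -1.10 (-1.96 to -0.22), in WT and 26.6 against 11.9 CPM, -1.16 (-1.79 to -0.57), in KO, and Pdk3 was past the fold higher in KO with an interval that included 0. The log2 ratios of others were Mpc1 -0.050 (-0.20 to 0.11), Galm -0.067 (-0.48 to 0.36), Pgm2 -0.55 (-1.09 to 0.0074) and Mpc2 -0.10 (-0.39 to 0.20) in WT, and Mpc2 -0.020 (-0.24 to 0.20), Mpc1 -0.12 (-0.25 to 0.0047), Galm -0.28 (-0.72 to 0.15) and Pgm2 -0.21 (-0.69 to 0.27) in KO. The mitochondrial pyruvate carriers Mpc1 and Mpc2 had intervals that included 0 in both libraries. Of 7 pentose phosphate genes, which make NADPH for the oxidative burst, none was past the fold higher and 0 and 1 were past it lower. Pgd had 252 against 191 CPM, -0.40 (-0.59 to -0.20), and 230.4 against 176 CPM, -0.39 (-0.56 to -0.22). Tkt (-0.30, -0.56 to -0.022 and -0.43, -0.65 to -0.21) and Taldo1 (-0.19, -0.26 to -0.11 and -0.20, -0.27 to -0.14) also had log2 ratios below 0, and the gene past the fold in KO was Rpia (-1.41, -2.62 to -0.33). TMM and DESeq2 scaling moved WT state ratios up by 0.112 and 0.131, after which the WT intervals of Tkt and Taldo1 include 0. The log2 ratios of others were Rpe 0.38 (-0.42 to 1.24), G6pdx -0.045 (-0.46 to 0.39) and Pgls -0.29 (-0.80 to 0.24) in WT, and Pgls -0.22 (-0.65 to 0.21), G6pdx -0.22 (-0.57 to 0.13) and Rpe -0.34 (-1.08 to 0.38) in KO.

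Between the libraries, Hif1a and several glycolytic enzymes were higher in KO neutrophils, and Hk1, Mxi1, Vegfa and Pfkp were lower, all by less than 1.5-fold. Past the fold were 1 of 20 glycolysis genes higher (Pdk1, 13 and 27 UMIs, log2 ratio 0.60, -0.40 to 1.68), none lower, and none of 10 hypoxia genes, against 5.41% of 9188 genes higher and 13.1% lower. The median log2 ratio was 0.15 for glycolysis genes, -0.049 for hypoxia genes and -0.072 for all genes.

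Hif1a in WT and KO neutrophils stood at 497 against 642 CPM, a log2 ratio of 0.37 (0.30 to 0.44). It was higher in KO among state-high cells (0.33, 0.23 to 0.43) and among state-zero cells (0.51, 0.38 to 0.64). Gapdh stood at 318 against 398 CPM, 0.33 (0.24 to 0.41), and Ldha at 105 against 137 CPM, 0.38 (0.23 to 0.53). Pfkfb4 stood at 122 against 156 CPM, 0.36 (0.22 to 0.50), Pgam1 at 61.7 against 78.9 CPM, 0.36 (0.16 to 0.55), and Hk3 at 179 against 219 CPM, 0.29 (0.18 to 0.41). Each of these 6 genes had intervals above 0 within both states as well. The split by state did not hold the mix of clusters fixed. Cluster 5 gave 119 of 833 WT and 492 of 1648 KO state-zero cells, and its part in these ratios was not tested. Pgk1 was higher among state-zero cells (0.61, 0.28 to 0.96) and had a ratio of -0.058 (-0.32 to 0.20) among state-high cells. Eno1 (0.24, 0.050 to 0.44), Gpi1 (0.18, 0.069 to 0.29), Slc2a1 (0.13, 0.0052 to 0.25) and Slc2a3 (0.12, 0.025 to 0.22) were slightly higher over all neutrophils. With the 4 clusters weighted alike Slc2a3 turned to -0.15 and Gpi1 stood at 0.019.

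Hk1 stood at 110.0 against 77.7 CPM, a log2 ratio of -0.50 (-0.67 to -0.33), over all neutrophils, but differed less within the states, by -0.26 (-0.47 to -0.056) among state-high and -0.19 (-0.61 to 0.24) among state-zero cells. Egln3 stood at 221 against 189.9 CPM, -0.22 (-0.33 to -0.11), and within the states at -0.072 (-0.22 to 0.076) and 0.0095 (-0.24 to 0.26). Both genes were high in state-high cells, which were a smaller share of KO than of WT neutrophils. The part of that share in the ratios was not tested. With the 4 clusters weighted alike, Hk1 had a KO over WT ratio of -0.22 and Egln3 of 0.19, the latter a change of direction. Mxi1 stood at 128 against 94.03 CPM, -0.44 (-0.59 to -0.29), and was lower in both states (-0.33, -0.57 to -0.081 and -0.68, -0.93 to -0.43). Weighted alike, its ratio was -0.73, past 1.5-fold, and that of Pfkp -0.14. Vegfa stood at 31.1 against 21.1 CPM, -0.56 (-0.88 to -0.24), Pfkp at 115 against 92.6 CPM, -0.31 (-0.47 to -0.15), and Slc16a3 at 495 against 427 CPM, -0.21 (-0.28 to -0.14). Egln1 stood at 18.1 against 13.2 CPM, -0.45 (-0.87 to -0.038), and P4ha1 at 8.05 against 12.02 CPM, 0.58 (0.042 to 1.13).

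Within state-high cells no glycolysis gene and 2 hypoxia genes, P4ha1 (0.91, 0.16 to 1.68) and Ankrd37 (0.92, -0.052 to 1.94), were past the fold, both higher, against 5.92% of all genes higher and 12.9% lower. Within state-zero cells Pgk1 was past it higher and Mxi1 lower, against 7.13% and 12.2%.

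**Figure D5:**
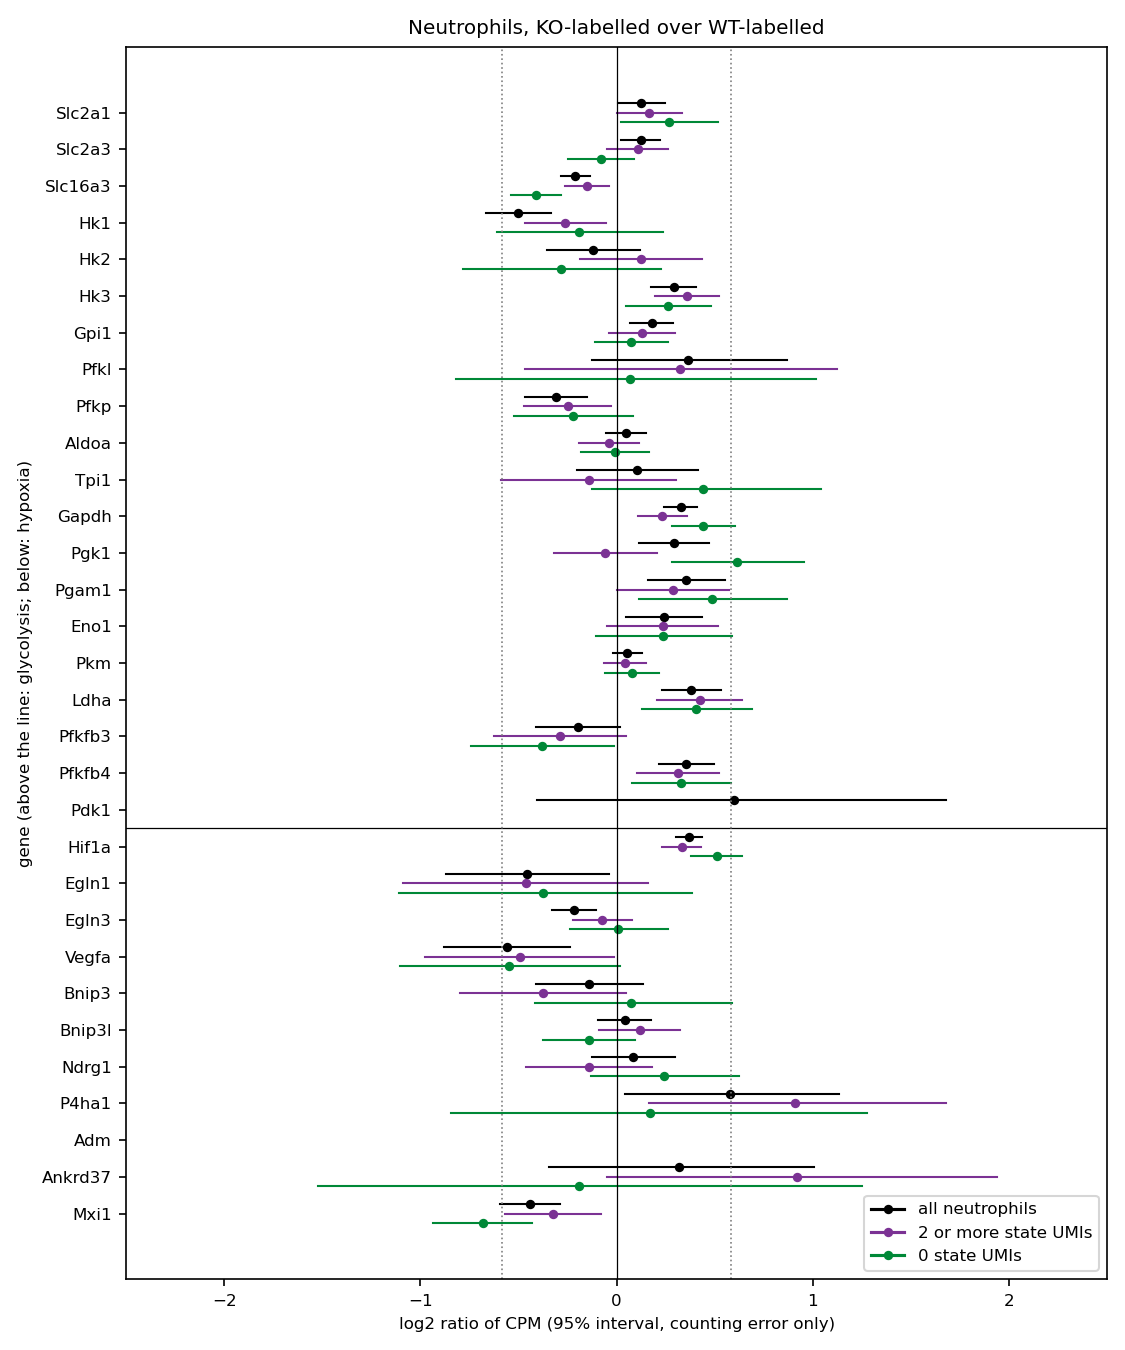
Log2 ratio of CPM, KO-labelled over WT-labelled, for each member over all neutrophils (black), those with 2 or more state UMIs (purple) and those with 0 (green), with 95% counting intervals and 1.5-fold as dotted lines, members under 20 UMIs left blank. Hif1a, Gapdh and Ldha lie right of 0 in all 3 sets and Mxi1 left of 0, while Egln3 and Hk1 lie nearer 0 within the states than over all neutrophils.

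Beside these ratios, interstitial macrophage markers summed to 181 CPM in WT and 20.8 CPM in KO neutrophils, T cell markers to 57.8 and 18.97 CPM, CCR7 dendritic cell markers to 72.1 and 15.2 CPM, and genes induced by tissue digestion to 16968 and 14913 CPM. Detected were 10 and 10 of 11, 12 and 11 of 12 and 8 and 9 of 10 markers of those 3 cell types. Cluster 5, led by Retnlg, Mmp8 and Lcn2, made up 8.21% of WT and 22.8% of KO neutrophils. The part of these measures in the ratios was not tested.

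Of 24 other hypoxia genes measured, 4 were past the fold higher in KO neutrophils and 3 lower. Of all 9188 genes 5.41% were higher and 13.1% lower, which is also the background of the other lists below. Plin2, a lipid droplet protein, stood at 51.3 against 109.9 CPM, a log2 ratio of 1.10 (0.90 to 1.30). Hmox1 (heme oxygenase) stood at 45.2 against 65.3 CPM, 0.53 (0.31 to 0.76), Flt1 (a VEGF receptor) at 28.01 against 7.88 CPM, -1.83 (-2.29 to -1.39), and Maff at 58.9 against 40.5 CPM, -0.54 (-0.77 to -0.31). Of 10 other glycolysis genes 2 were higher and 1 lower, with Adpgk at 9.88 against 19.9 CPM, 1.01 (0.55 to 1.49), and Galm (galactose mutarotase) at 50.3 against 32.3 CPM, -0.64 (-0.89 to -0.38). None of 7 pentose phosphate genes passed the fold. Also past it were Ddit4, Tfrc and Rragd (higher), Epas1 and Rora (lower) and Eno3 (higher), named after their values were seen. The log2 ratios of other glycolysis genes were Mpc2 0.27 (0.11 to 0.43), Pgm1 0.27 (-0.58 to 1.15), Slc2a6 -0.21 (-0.38 to -0.026) and Pdk3 -0.17 (-0.73 to 0.39). The log2 ratios of other hypoxia genes were Tfrc 0.78 (-0.072 to 1.69) and Wsb1 -0.37 (-0.53 to -0.21). The log2 ratios of the pentose phosphate genes were Tkt 0.19 (0.041 to 0.34), Pgls 0.12 (-0.16 to 0.42), G6pdx -0.012 (-0.25 to 0.23), Taldo1 -0.13 (-0.17 to -0.083), Rpia -0.57 (-1.17 to 0.024) and Rpe -0.30 (-0.75 to 0.14).

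In the other 7 compared classes and B cell clusters 1 and 12, between 1 and 8 members passed the fold per group. Gapdh was higher in KO classical monocytes (345 against 470.2 CPM, a log2 ratio of 0.45, 0.33 to 0.56) and lower in KO interstitial (-0.11, -0.19 to -0.033) and alveolar macrophages (-0.095, -0.17 to -0.022). Differences between classes were not tested.

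Vegfa was lower in KO in each of the 4 compared groups where it was measured, with intervals below 0. The share of all genes with such a pattern was not counted. Within neutrophil states its log2 ratio was -0.49 (-0.98 to -0.013) among state-high cells. Among state-zero cells it was -0.55 (-1.10 to 0.020), an interval that included 0. Its ratio in interstitial macrophages is not given by cluster. In NK cells it stood at 54.5 against 21.8 CPM, a log2 ratio of -1.33 (-2.06 to -0.62), from 52 and 26 UMIs. In interstitial macrophages it stood at 19.4 against 8.55 CPM, -1.18 (-1.75 to -0.65), from 125 and 38 UMIs, and in classical monocytes at 18.9 against 11.96 CPM, -0.66 (-1.18 to -0.11). In NK cells 7.11% of all genes were past the fold higher and 7.29% lower, and of 22 measured members 1 was higher (P4ha1, 0.67, -0.078 to 1.46) and 2 lower (Vegfa and Pfkl, -0.59, -1.68 to 0.48). Tpi1 stood at 46.2 against 68.6 CPM, 0.57 (0.026 to 1.13). The ratio of Aldoa was -0.29 (-0.68 to 0.10).

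In interstitial macrophages, a class named by its markers and not by its place in the lung, Ndrg1 was higher in KO at 25.1 against 46.8 CPM, a log2 ratio of 0.90 (0.59 to 1.20). Slc16a3 was lower at 26.1 against 13.9 CPM, -0.90 (-1.35 to -0.47). Aldoa stood at 309 against 226 CPM, -0.45 (-0.57 to -0.34), and Hk2 at 154 against 193 CPM, 0.33 (0.19 to 0.46). Here 5.57% of all genes were past the fold higher and 8.21% lower, and of 29 members 1 (Ndrg1) and 3 (Slc16a3, Vegfa, Egln3). Different clusters held most of the class in each library: cluster 6, which Gpnmb and Trem2 lead, with 535 WT and 313 KO cells, and cluster 11, which Ccl12 and Pf4 lead, with 260 and 385. Ndrg1 stood at 17.6 and 15.4 CPM in cluster 6 and 48.4 and 83.98 CPM in cluster 11, Slc16a3 at 31.97 and 18.3 CPM and 7.65 and 8.84 CPM, Aldoa at 359 and 295 CPM and 154 and 144 CPM, and Hk2 at 164 and 201 CPM and 124 and 184 CPM. Hk2 was thus higher in KO in both clusters, Ndrg1 in cluster 11 only.

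In classical monocytes, Pfkl (liver-type phosphofructokinase) stood at 6.61 against 16.8 CPM, a log2 ratio of 1.35 (0.56 to 2.25), from 14 and 174 UMIs, and Pgam1 at 107 against 153 CPM, 0.51 (0.31 to 0.72). Bnip3 stood at 24.1 against 14.4 CPM, -0.74 (-1.21 to -0.25), and Hk1 at 62.3 against 42.1 CPM, -0.57 (-0.85 to -0.27). Past the fold were Pfkl and Ankrd37 higher and Bnip3 and Vegfa lower, against 8.41% and 10.9% of all genes. Neutrophil markers, several of which monocytes also express, summed to 35157 and 48066 CPM in these cells and interstitial macrophage markers to 1288 and 232 CPM, and their part in the ratios was not tested.

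In alveolar macrophages 1 member passed the fold, Bnip3 at 9.77 against 5.42 CPM, a log2 ratio of -0.85 (-1.62 to -0.14), against 4.62% of all genes higher and 5.22% lower, and Egln1 stood at 35.1 against 47.7 CPM, 0.44 (0.17 to 0.72). The ratios of Hk2 and Mxi1 were 0.22 (0.037 to 0.40) and -0.43 (-0.74 to -0.12). In T cells Hk2 was lower at 38.6 against 22.2 CPM, -0.79 (-1.22 to -0.38), and Hif1a higher at 489 against 577 CPM, 0.24 (0.15 to 0.33), against 4.18% of all genes past the fold higher and 5.6% lower, and of 26 members Pfkfb4 was past it higher and Hk2 lower. The ratios of Ldha and Pfkp were 0.046 (-0.075 to 0.17) and -0.27 (-0.47 to -0.063). In cDC1, Slc2a1 stood at 59.5 against 34.8 CPM, -0.78 (-1.26 to -0.29), and Mxi1 at 15.9 against 29.3 CPM, 0.88 (0.16 to 1.64), where 7.73% and 7.39% of all genes were past it and, of 25 members, Mxi1 and Pfkl higher and Slc2a1, Pfkfb4 and Pdk1 lower. The ratios of Ndrg1 and Gpi1 were 0.55 (0.15 to 0.96) and -0.35 (-0.59 to -0.11). In cDC2, Pfkp stood at 648 against 553 CPM, -0.23 (-0.34 to -0.12), with 8.58% and 7.34% of all genes past the fold and Pfkl the 1 member past it (15 and 27 UMIs). The ratios of Hif1a, Eno1 and Aldoa were 0.14 (-0.045 to 0.32), 0.30 (-0.063 to 0.66) and -0.30 (-0.54 to -0.058).

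In B cell cluster 1, Slc2a1 stood at 27.9 against 15.2 CPM, a log2 ratio of -0.87 (-1.64 to -0.16), and Hk1 at 22.2 against 33.96 CPM, 0.61 (0.026 to 1.20), with 5.2% and 5.8% of all genes past the fold, and of 24 members Hk1 higher and Slc2a1, Pfkl and Bnip3 lower. The ratios of Egln1 and Pfkl were 0.55 (-0.0071 to 1.11) and -0.78 (-1.61 to -0.0034). In B cell cluster 12, Aldoa stood at 162 against 107 CPM, -0.59 (-1.02 to -0.16), and Pgk1 at 30.3 against 61.8 CPM, 1.03 (0.27 to 1.82), with 8.27% and 7.28%, and of 22 members 3 were higher (Pgk1, Pdk1, Ankrd37) and 5 lower (Aldoa, Slc2a3, Hk1, Pfkl, Mxi1). The ratios of Pdk1 and Gapdh were 0.72 (-0.12 to 1.58) and -0.12 (-0.51 to 0.26). Hk1 had an interval above 0 in B cell cluster 1 and below 0 in neutrophils, classical monocytes, interstitial macrophages and T cells.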

How the data were processed

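The authors deposited whole-number UMI counts per gene and barcode, not normalized, for barcodes already called as cells. Cell Ranger 7.0.0 made them per the file headers, and the submitters' processing notes name Cell Ranger 7.1.0 and 7.0.0 and mm10. The chemistry was 10x 3′ per the labels' protocols. Antibody counts were not used here.

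Barcodes under 200 genes or over 10% mitochondrial UMIs were dropped (80 WT, 61 KO), and Scrublet in scanpy 1.11.5 (expected 8%) called 260 (2.91%) and 457 (4.55%) doublets, also dropped. Clustering both libraries together (3000 variable genes, 30 components, 15 neighbours, Leiden resolution 1) gave 34 clusters, named by at least 3 markers of 24 fixed sets, each in at least 20% of cells and 2-fold higher than outside. That scoring was set after seeing the data. B cells were compared by cluster because an eosinophil marker, Il5ra, but no B cell marker, was among the leading genes of cluster 17.

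Counts were summed over cells as CPM, with exact Poisson, conditional binomial (ratios) and Clopper-Pearson (shares) intervals. Counts of 0 allow up to 3. Members and lists were chosen with earlier results of these data known. Values are printed for the 4 highest and 4 lowest members and 3 of each list per neutrophil comparison, for each member's highest and lowest class and for 2 members each way elsewhere. Other values were added after they were seen. On counts of 9188 neutrophil genes simulated with counting error only, 95.8% of KO over WT intervals held the true ratio. The simulation had no variation between cells, mice or libraries, so it cannot check the intervals for that. Of genes raised 1.5-fold in it, 65% had an interval above 0. Eno1b, a near copy of Eno1, had 58 and 55 UMIs. edgeR 4.0.16 and DESeq2 1.42.0 gave alternative scaling factors only. Alternatives included filters, scaling, thinning, weighting and state rules.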

Additional observations from a re-analysis of the deposited data

Results flagged for a closer look

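Pfkl, the liver-type phosphofructokinase, went opposite ways in 2 cell groups, each past 1.5-fold. Its KO over WT log2 ratio was 1.35 (0.56 to 2.25) in classical monocytes, from 14 and 174 UMIs, and -0.78 (-1.61 to -0.0034) in B cell cluster 1, from 55 and 19 UMIs. The difference between the groups was not tested, and each ratio rests on 1 library per genotype.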

How the results depend on the processing

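No paired analysis was possible because there was 1 library per genotype, and no result was tested. TMM and DESeq2 scaling moved all log2 ratios up by 0.11 and 0.12 between the libraries and by 0.11 and 0.13 between the WT states. Between the KO states they moved them up by 0.078 and 0.035. An interval below 0 whose upper bound lay nearer 0 than such a shift includes 0 under that scaling. Hk1 kept its direction under all 20 alternatives of each state contrast and all 13 between the libraries, where it ran from -0.51 to -0.22. Its state ratio ran from 0.57 (Rnd1 alone, under 1.5-fold) to 1.68 in WT and from 0.80 (Hcar2 alone) to 1.88 in KO. Members past the fold higher in WT state-high cells numbered 2, but 1 with clusters weighted alike, a 2-fold rule, Rnd1 alone and clusters made without these genes, 4 with TMM scaling and DESeq2 scaling, and 5 with the state set on thinned counts. Those lower there numbered 1, but 0 with TMM scaling, DESeq2 scaling, the 5 cells per group with most UMIs of the gene left out, a 2-fold rule, a state cut of 1 UMI and Hcar2 alone, 2 with F3 alone and Rnd1 alone, 3 with mean CPM per cell, 4 with clusters weighted alike and cells grouped by depth, 5 with thinned counts and clusters made without these genes, and 7 with the state set on thinned counts. Members higher in KO state-high cells numbered 5, but 1 with a 2-fold rule, and 3 with F3 alone and Rnd1 alone. Those lower there numbered 0, but 1 with a state cut of 3 UMIs and Hcar2 alone, 2 with no UMI minimum and Rnd1 alone, 3 with F3 alone, and 5 with cells grouped by depth and the state set on thinned counts. Members higher in KO than in WT neutrophils numbered 1, but 0 with cells of at least 500 genes, a minimum of 50 UMIs and a 2-fold rule, 2 with TMM scaling, DESeq2 scaling and the 5 cells per group with most UMIs of the gene left out, and 3 with thinned counts. Members lower in KO neutrophils numbered 0, but 1 with cells of at least 500 genes, at most 5% mitochondrial UMIs, clusters weighted alike, states weighted alike and clusters made without these genes, and 2 with thinned counts. In the other classes, B cells aside, pairs of a member and a class past the fold higher numbered 8, but 16 with doublets kept, and 25 with thinned counts. Such pairs lower numbered 12, but 30 with thinned counts. With thinned counts the minimum of 20 UMIs was still taken on the full counts, so sparser counts entered the ratios. Shares of all genes past the fold are not given for the alternatives, so these counts have no background. Members lower in KO state-high cells than in WT ones numbered 0, but 1 with thinned counts, and 3 with a state cut of 3 UMIs. Members lower in KO state-zero cells than in WT ones numbered 1, but 3 with thinned counts. The KO state ratio of Ankrd37 turned to -0.044 with F3 alone, -0.48 with Rnd1 alone and -0.079 with the state set on thinned counts. The KO state ratio of Egln3 turned to -0.17 with clusters weighted alike and -0.12 with clusters made without these genes. The KO state ratio of P4ha1 turned to -0.50 with F3 alone and -0.43 with Rnd1 alone. The WT state ratio of Egln3 turned to -0.19 with clusters weighted alike and -0.081 with clusters made without these genes. The clusters made without these genes, the states weighted alike and the state set on thinned counts were chosen after seeing the data. The causes of these moves were not tested. Members under 20 UMIs (Adm, and Pdk1 between states) were too shallow to compare.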
